A study of Homo sapiens with 5 samples.

Results

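The collagen gene family was examined for EZH2 and H3K27me3 in HT1376, an established human bladder carcinoma cell line. Members were the protein-coding RefSeq genes of GRCh38 whose symbol is COL, a number, A and a number, on chromosomes 1 to 22 and X, which gave 44 of 19974 protein-coding genes. Symbols alone define the members, but the family was selected on interval calls of these same 4 lists, at gene ends and over gene bodies, so these values are given as a description. Treated cells received 250 nM CPI-0209, an inhibitor of the methyltransferase EZH2, and control cells received DMSO. The labels give 8 days of treatment, while their extraction text names 4 and 8 days. Chromatin immunoprecipitation with sequencing (ChIP-seq) was run against H3K27me3, the histone mark that EZH2 makes, and against EZH2 itself. The 4 groups were H3K27me3 in CPI-0209 cells, H3K27me3 in DMSO cells, EZH2 in CPI-0209 cells and EZH2 in DMSO cells, each 1 library of the same line. An input library labelled for both treatments was not analysed here. The values are called intervals without scores, read counts or expression, so the line was not checked against marker genes and no difference between CPI-0209 and DMSO has a replicate check or a test.

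Collagens are extracellular matrix proteins whose chains wind into triple helices, and most are made by mesenchymal cells such as fibroblasts and chondrocytes rather than by epithelium. EZH2 is the enzyme within PRC2, a Polycomb complex that trimethylates lysine 27 of histone H3 over silent developmental and lineage genes, often at CpG-rich promoters. Some collagen genes lie head to head, so that chains of the same trimer are transcribed outwards from a shared promoter.

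Over the genome, H3K27me3 intervals covered 113.8 Mb in CPI-0209 and 315.1 Mb in DMSO, and EZH2 intervals covered 226.3 Mb in CPI-0209 and 193.4 Mb in DMSO. Read depth is unknown, and its part in these differences was not tested. A gene end counted as marked where an interval overlapped the window of 2 kb either side of it by at least 1 bp. A domain is a run of overlapping intervals, and a gene record is the whole annotated gene from end to end. Limits in brackets are exact Clopper-Pearson 95% limits and cover counting error only.

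The promoters of 6 members are shown because results below turn on them: COL4A1, COL4A3 and COL4A5 for the 3 head-to-head pairs, COL16A1 for a gene with no EZH2 call in DMSO, COL24A1 for a mark at the start of a very long gene, and COL17A1 for a gene with no call at all. Each runs 5′ to 3′ on the strand of its gene, from 250 bases before the listed start to 50 bases after it, from RefSeq on GRCh38.p14. Capitals mark CpG dinucleotides. COL4A1 is at chr13:110307108-110307407 on the minus strand, COL4A3 at chr2:227164374-227164673 on the plus strand and COL4A5 at chrX:108439588-108439887 on the plus strand. COL16A1 is at chr1:31703968-31704267, COL24A1 at chr1:86156723-86157022 and COL17A1 at chr10:104085831-104086130, all on the minus strand.
COL4A1: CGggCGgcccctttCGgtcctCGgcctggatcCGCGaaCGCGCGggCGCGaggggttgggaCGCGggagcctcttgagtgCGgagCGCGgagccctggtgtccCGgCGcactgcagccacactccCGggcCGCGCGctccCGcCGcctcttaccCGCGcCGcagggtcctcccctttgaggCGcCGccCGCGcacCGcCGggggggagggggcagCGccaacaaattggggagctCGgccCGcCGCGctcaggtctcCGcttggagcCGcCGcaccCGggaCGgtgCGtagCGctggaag
COL4A3: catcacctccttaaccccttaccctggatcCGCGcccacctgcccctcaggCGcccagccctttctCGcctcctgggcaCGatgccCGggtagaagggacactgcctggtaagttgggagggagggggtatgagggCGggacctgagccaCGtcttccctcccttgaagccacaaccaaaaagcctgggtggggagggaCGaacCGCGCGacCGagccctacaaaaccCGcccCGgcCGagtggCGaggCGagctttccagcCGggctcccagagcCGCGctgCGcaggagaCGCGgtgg
COL4A5: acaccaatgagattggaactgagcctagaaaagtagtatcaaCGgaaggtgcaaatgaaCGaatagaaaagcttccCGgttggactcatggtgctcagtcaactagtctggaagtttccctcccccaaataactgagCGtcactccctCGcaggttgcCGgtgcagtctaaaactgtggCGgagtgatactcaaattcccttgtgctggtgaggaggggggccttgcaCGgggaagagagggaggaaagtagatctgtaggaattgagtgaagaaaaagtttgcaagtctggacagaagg
COL16A1: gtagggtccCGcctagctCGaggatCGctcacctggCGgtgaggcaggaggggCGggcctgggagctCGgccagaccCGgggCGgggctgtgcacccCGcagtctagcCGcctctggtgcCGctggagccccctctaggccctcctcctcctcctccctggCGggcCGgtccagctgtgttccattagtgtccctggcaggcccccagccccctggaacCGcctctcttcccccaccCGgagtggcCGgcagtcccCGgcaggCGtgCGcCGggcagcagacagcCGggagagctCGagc
COL24A1: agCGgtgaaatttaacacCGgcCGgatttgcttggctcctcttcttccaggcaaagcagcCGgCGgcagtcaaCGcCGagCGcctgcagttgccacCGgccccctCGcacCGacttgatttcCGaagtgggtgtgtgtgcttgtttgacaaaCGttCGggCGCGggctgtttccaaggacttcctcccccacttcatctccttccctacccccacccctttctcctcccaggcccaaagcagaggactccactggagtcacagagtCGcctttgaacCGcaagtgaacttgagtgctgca
COL17A1: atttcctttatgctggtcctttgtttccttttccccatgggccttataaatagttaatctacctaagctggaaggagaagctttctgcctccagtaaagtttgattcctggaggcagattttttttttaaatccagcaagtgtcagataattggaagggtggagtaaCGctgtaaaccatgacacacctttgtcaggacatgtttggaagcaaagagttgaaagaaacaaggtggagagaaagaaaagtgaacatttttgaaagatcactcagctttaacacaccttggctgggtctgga
The number of CpG in these 300 bases was 45 for COL4A1, 24 for COL4A3, 22 for COL16A1, 18 for COL24A1, 8 for COL4A5 and 1 for COL17A1.

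H3K27me3 was called at the ends of more than 50% of the collagen genes in both conditions. At least 1 end was marked at 26 of 44 members in CPI-0209 (59.1%, 43.2 to 73.7) and at 28 in DMSO (63.6%, 47.8 to 77.6), where all protein-coding genes stood at 21.7% in CPI-0209 and 31.3% in DMSO. Both ends were marked at 13 members in CPI-0209 and 16 in DMSO, against 8.68% and 15.2% of all genes. At least 50% of the record was covered in 14 members in CPI-0209 and 18 in DMSO, against 8.51% and 16.4% of all genes. At these settings the collagen share was above the share over all genes on all 3 measures in both libraries. Collagen records are long, with a median of 144.7 kb against 24.2 kb over all genes. Among the 6025 protein-coding genes between the collagen length quartiles (40.8 to 212.5 kb), whose median is 78.2 kb, 21.8% had an H3K27me3-marked end in CPI-0209 and 31.6% in DMSO, and 5.34% and 10.8% had both. The part of gene length in the collagen shares was not tested. The intervals of a list overlap each other, and where only stretches under 2 intervals were counted, 11 members had a marked end in CPI-0209 and 27 in DMSO. With the DMSO list shortened to the covered length of the CPI-0209 list by keeping its widest intervals, 16 members had a marked end in DMSO, so that the 26 in CPI-0209 were then the higher number. That rule left 2694 of 41342 DMSO intervals and dropped the narrowest first, so it is not a comparison at equal depth. No share over all genes stands beside the counts at these 2 alternative settings.

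EZH2 was called at 1 or more ends of 33 of 44 members in CPI-0209 (75.0%, 59.7 to 86.8) and of 33 in DMSO, against 71.5% and 54.6% of all genes. In CPI-0209 the collagen share was therefore near the background. Under 2 intervals the counts were 28 in CPI-0209 and 14 in DMSO, and with the CPI-0209 list shortened 26 and 33, with no share over all genes beside them. At both ends EZH2 was called at 19 members in CPI-0209 and 14 in DMSO, against 25.9% and 17.5% of all genes. At least 50% of the record lay under EZH2 in 18 members in CPI-0209 and 16 in DMSO, against 20.2% and 15.6% of all genes. Over the summed 6.96 Mb of collagen records, H3K27me3 covered 20.2% in CPI-0209 and 28.6% in DMSO, against 4.82% and 11.5% over all genes. EZH2 covered 26.1% in CPI-0209 and 22.9% in DMSO, against 9.71% and 8.22%. Some part of the record was under H3K27me3 in 27 members in CPI-0209 and 30 in DMSO, against 22.9% and 30.5% of all genes, and under EZH2 in 35 members in each condition, against 73.8% in CPI-0209 and 56.6% in DMSO. The H3K27me3 sums lie above the median member, which had 2.44% of its record under H3K27me3 in CPI-0209 and 10.9% in DMSO. Under 2 intervals the H3K27me3 sum was 3.48% in CPI-0209 and 24.7% in DMSO, against 0.680% and 7.68% over all genes. The EZH2 sum was then 20.7% in CPI-0209 and 4.44% in DMSO, against 4.96% and 1.57%.

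**Figure D1:**
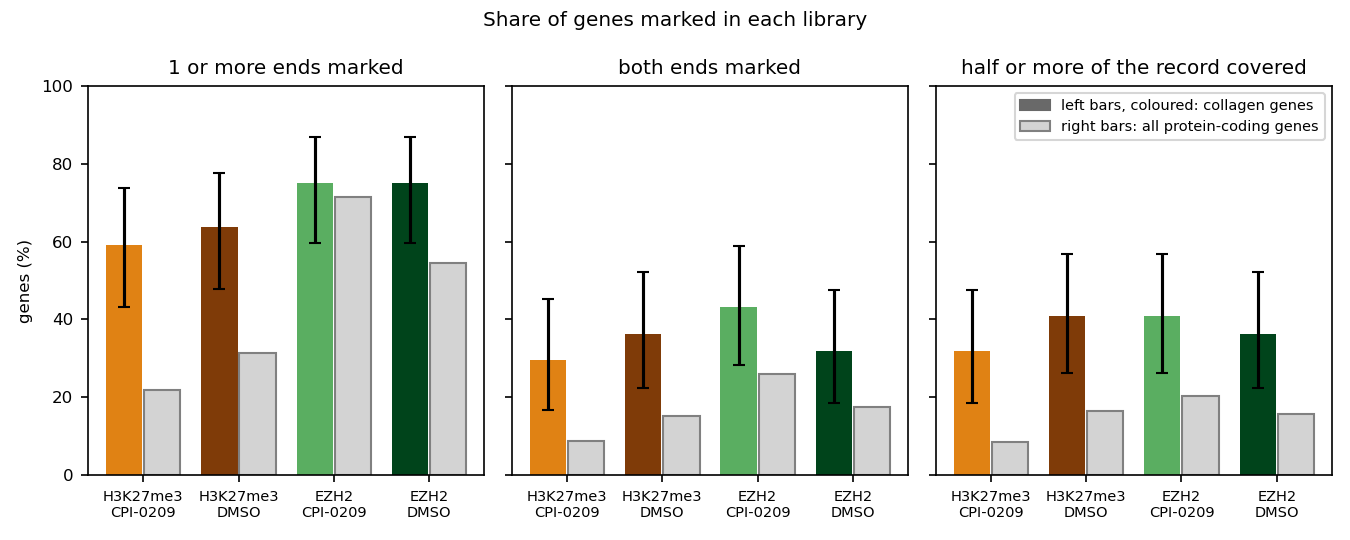
Percent of genes (y axis) with 1 or more marked ends, both ends marked, or 50% or more of the record covered, in each of the 4 libraries. Coloured bars are the 44 collagen genes with exact 95% limits and grey bars all 19974 protein-coding genes; the EZH2 bars for 1 or more ends in CPI-0209 are close together, at 75.0% and 71.5%.

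By H3K27me3 in DMSO the family had 3 patterns, which describe the values that define them and are not tested. In 18 members at least 50% of the record was covered, with a median of 97.6%. In 10 members an end was marked but less than 50% of the record was covered, with a median of 8.08%. The other 16 had no marked end. The members nearest to the border were COL5A3 at 74.9% and COL6A2 at 82.7% inside it, and COL9A2 at 45.8% and COL8A2 at 42.1% outside it. The broadly covered genes had a median length of 71.0 kb, the genes with a marked end only 160.5 kb and the unmarked genes 173.6 kb.

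**Figure D2:**
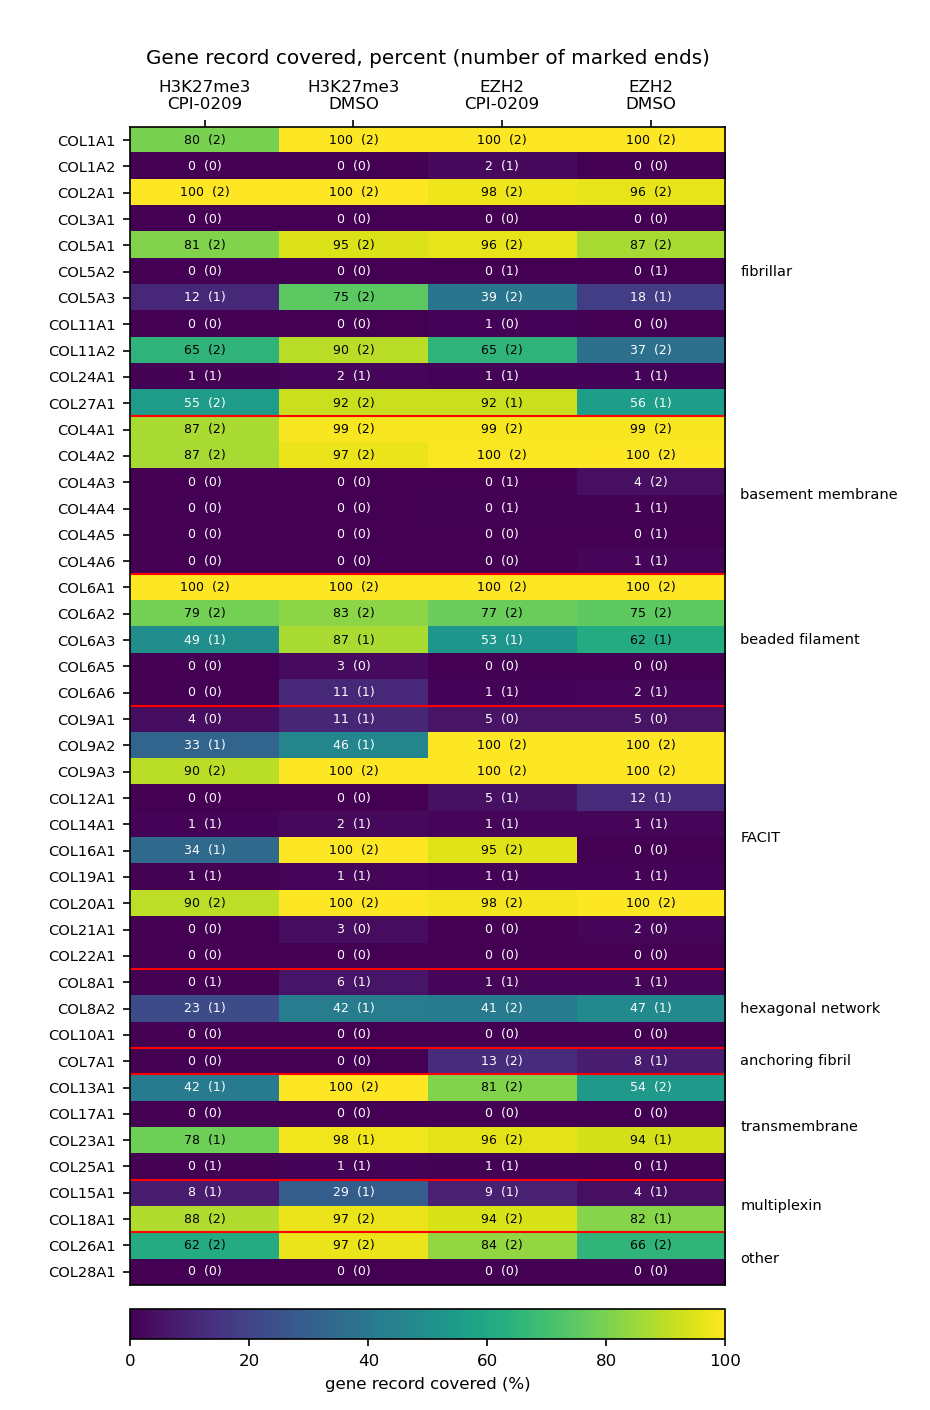
Percent of each gene record under called intervals (colour and number) in the 4 libraries (columns) for the 44 collagen genes (rows, by structural class), with the number of marked ends in brackets. H3K27me3 percents in CPI-0209 are at or below those in DMSO in every row, and COL16A1 stands out for EZH2 at 95.1% in CPI-0209 and 0% in DMSO.

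The fibrillar collagens, which build the fibrils of bone, skin and cartilage, had a marked H3K27me3 end at 7 of 11 members in CPI-0209 and 7 in DMSO. All genes stood at 21.7% in CPI-0209 and 31.3% in DMSO, and all 44 collagen genes at 59.1% and 63.6%. The fibrillar count is thus near that of the whole family. COL1A1, the major chain of type I collagen, was covered over 80.0% of its record in CPI-0209 and 100% in DMSO. COL1A2, its partner chain, was at 0% in both, as was COL3A1, the chain of type III collagen. The 2 chains of type I collagen thus differed in the mark. For EZH2, COL1A1 was covered over 100% in both conditions, and COL1A2 over 2.49% in CPI-0209, in a domain of 2.40 kb, and 0% in DMSO.

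COL2A1, the cartilage collagen, was covered by H3K27me3 over 100% of its record in both conditions, in a domain of 35.8 kb in CPI-0209 and 65.8 kb in DMSO. COL11A2, a type XI chain that joins cartilage fibrils, was covered over 65.0% in CPI-0209 and 89.6% in DMSO, while its partner COL11A1 was at 0% in both. The type V chains, which help set the width of type I fibrils, were just as uneven. COL5A1 was covered over 81.2% in CPI-0209 and 94.8% in DMSO. COL5A3 was covered over 11.6% in CPI-0209 and 74.9% in DMSO, and COL5A2 over 0% in both. Among the minor fibrillar chains, COL27A1 was covered over 55.0% in CPI-0209 and 92.0% in DMSO. COL24A1 had the mark mainly at its start, in a domain of 3.40 kb in CPI-0209 and 6.80 kb in DMSO beside a record of 427.8 kb.

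Type VI collagen, the beaded filament around cells, was marked at all 3 of its main chains. COL6A1 was covered by H3K27me3 over 100% in both conditions and COL6A2 over 79.3% in CPI-0209 and 82.7% in DMSO. COL6A3 was covered over 49.4% in CPI-0209, in 7 pieces, and over 87.4% in DMSO, in 1 piece. The alternative chains carried little: COL6A6 was at 0% in CPI-0209 and 11.2% in DMSO, and COL6A5 at 0% in CPI-0209 and 2.87% in DMSO with no marked end.

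Type IX collagen, which coats cartilage fibrils, was marked at all 3 chains in DMSO. COL9A3 was covered over 89.7% in CPI-0209 and 100% in DMSO, and COL9A2 over 32.7% in CPI-0209 and 45.8% in DMSO. COL9A1 was covered over 3.86% in CPI-0209 and 10.5% in DMSO, and no end was marked in CPI-0209. The other fibril-associated collagens ranged widely. COL20A1 was at 89.9% in CPI-0209 and 100% in DMSO, and COL16A1 at 34.4% in CPI-0209 and 99.6% in DMSO. COL14A1 and COL19A1 had a mark at 1 end only, with 1.02% and 0.636% covered in CPI-0209 and 2.31% and 1.34% in DMSO. COL12A1, COL21A1 and COL22A1 had no end marked by H3K27me3.

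Among the transmembrane collagens, COL23A1 was covered over 78.1% in CPI-0209 and 98.0% in DMSO, and COL13A1, a collagen of the neuromuscular junction, over 41.7% in CPI-0209 and 100% in DMSO. COL25A1 was covered over 0.295% in CPI-0209 and 1.06% in DMSO. COL17A1, the hemidesmosome collagen of basal epithelial cells, had no interval of either target in either condition. Of the multiplexins of the basement membrane zone, COL18A1, whose end fragment is endostatin, was covered over 87.9% in CPI-0209 and 97.1% in DMSO. COL15A1 was covered over 7.96% in CPI-0209 and 29.4% in DMSO. COL26A1 was covered over 61.5% in CPI-0209 and 97.3% in DMSO, and COL28A1 over 0% in both.

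COL8A2 and COL8A1, the network collagens of the cornea and vessel wall, each had 1 marked end in both conditions. COL8A2 was covered over 23.4% in CPI-0209 and 42.1% in DMSO, and COL8A1 over 0.129% in CPI-0209 and 5.61% in DMSO. COL10A1, the collagen of hypertrophic cartilage, had no interval in any of the 4 lists. COL7A1, the anchoring fibril collagen of skin, was at 0% for H3K27me3 in both, with EZH2 over 12.6% in CPI-0209 and 8.09% in DMSO. COL3A1, COL10A1, COL17A1, COL22A1 and COL28A1 were at 0% of the record in all 4 lists. COL4A5 was too, but a 0.6 kb EZH2 interval in DMSO lay in the window of its start. No interval of any list reached an end of 8 of 44 members, against 22.5% of all genes. They were COL3A1, COL6A5, COL10A1, COL11A1, COL17A1, COL21A1, COL22A1 and COL28A1.

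The type IV collagens, the sheet-forming chains of basement membranes, lie as 3 head-to-head pairs that differed in their marks. COL4A1 (chr13:110148963-110307157) and COL4A2 (chr13:110307284-110513209), which form the common trimer, are 126 bp apart. A single H3K27me3 domain ran over both starts, 110.6 kb wide in CPI-0209 (chr13:110282001-110392600) and 193.6 kb wide in DMSO (chr13:110254001-110447600). With the further domains along the records counted, COL4A1 was covered over 87.4% in CPI-0209 and 99.0% in DMSO, and COL4A2 over 87.1% in CPI-0209 and 97.2% in DMSO. A single EZH2 domain also ran over both starts, 254.8 kb wide in CPI-0209 and 276.6 kb wide in DMSO. Because they share the domains at their starts, the 2 genes are not independent.

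COL4A4 and COL4A3, chains of the kidney filter membrane, are 135 bp apart and had no H3K27me3 interval over either record. EZH2 covered the stretch between them in a domain of 1.40 kb in CPI-0209 and 2.20 kb in DMSO. COL4A6 and COL4A5 are 379 bp apart and also had no H3K27me3. There, EZH2 near the starts was limited to a 0.6 kb interval in DMSO (chrX:108438001-108438600), which lies over the inner of the 2 listed COL4A6 starts and not between the genes, with none in CPI-0209. The CpG counts of the printed promoters, 45, 24 and 8, run in the same order as the widths of these EZH2 domains, over 3 pairs only. Over 762 head-to-head protein-coding pairs less than 1 kb apart, 4.33% had H3K27me3 in CPI-0209 and 6.82% in DMSO, and 86.5% had EZH2 in CPI-0209 and 65.4% in DMSO.

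**Figure D3:**
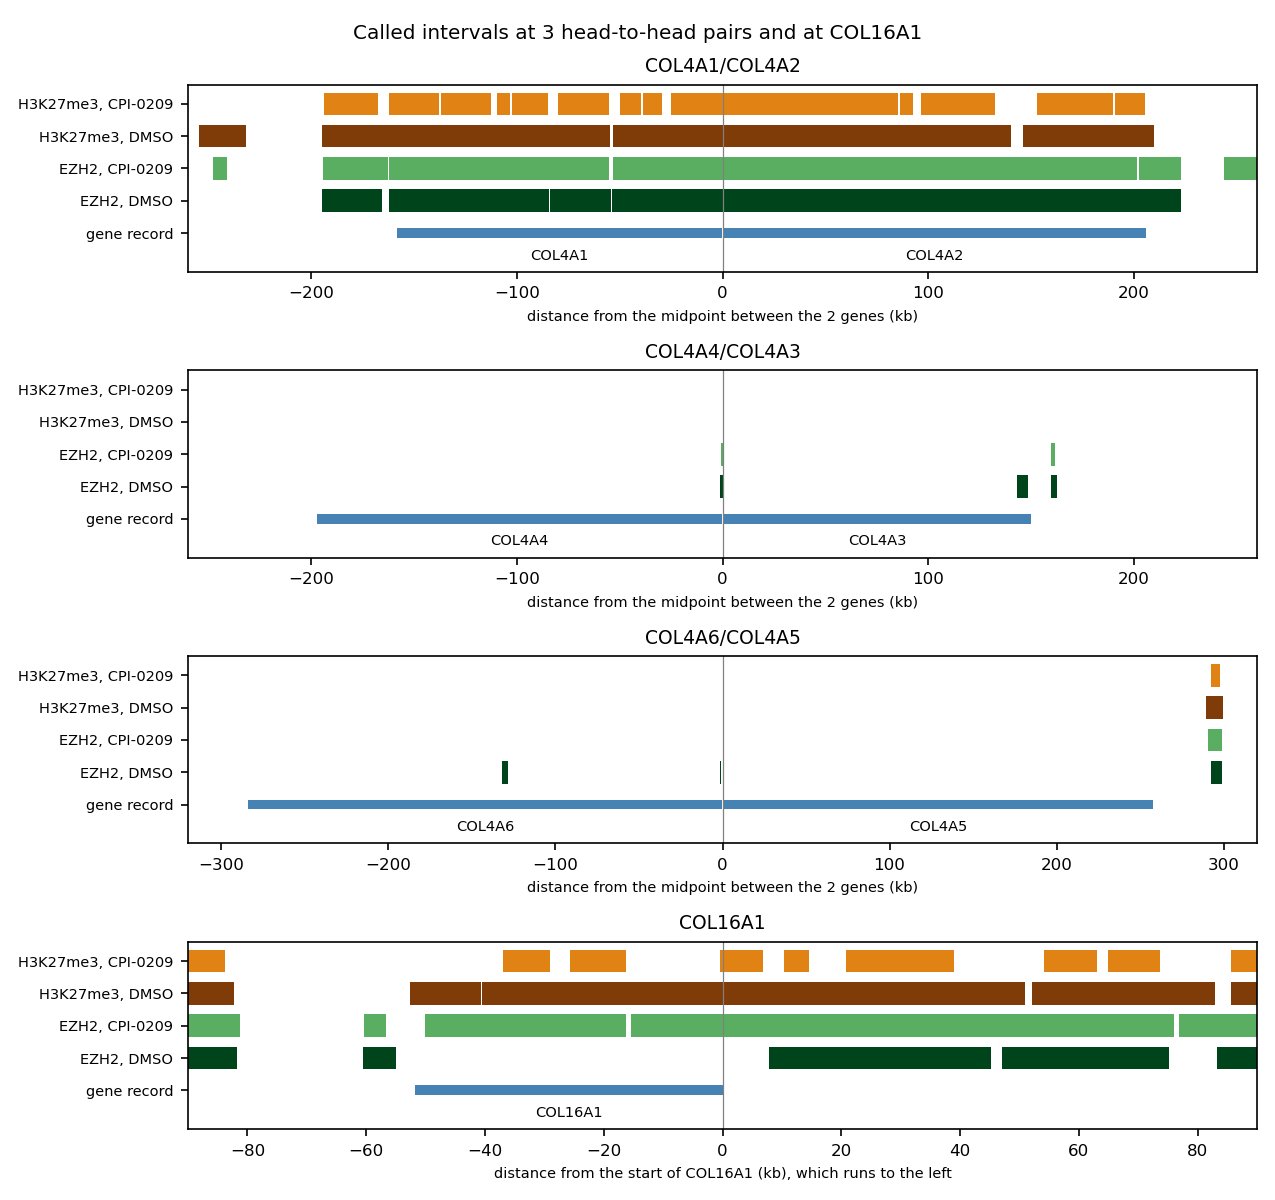
Called intervals of the 4 libraries (rows) around COL4A1/COL4A2, COL4A4/COL4A3, COL4A6/COL4A5 and COL16A1, by distance in kb (x axis), with gene records drawn to scale. The starts of COL4A1 and COL4A2 lie under a single domain in each of the 4 lists, 110.6 kb (CPI-0209) and 193.6 kb (DMSO) wide for H3K27me3. The COL16A1 record has EZH2 in CPI-0209 and none in DMSO, where EZH2 lies only outside the record.

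The other neighbouring members did not share a domain. COL6A1 and COL6A2, 93.1 kb apart, were both marked, and the stretch between them was under H3K27me3 over 45.8% in CPI-0209 and 76.6% in DMSO. COL6A5 and COL6A6, 31.9 kb apart, had 0% of the stretch between them under H3K27me3 in CPI-0209 and 7.28% in DMSO. COL19A1 and COL9A1, tail to tail and 2592 bp apart, and COL3A1 and COL5A2, 19.2 kb apart, had no interval between them.

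With CPI-0209, H3K27me3 stayed called at most marked collagen ends while the domains were narrower. Of the 16 members with both ends marked in DMSO, 13 had both marked in CPI-0209 (81.2%, 54.4 to 96.0; all genes 56.3%). The 13 were COL1A1, COL2A1, COL4A1, COL4A2, COL5A1, COL6A1, COL6A2, COL9A3, COL11A2, COL18A1, COL20A1, COL26A1 and COL27A1. COL5A3, COL13A1 and COL16A1 had 1 marked end in CPI-0209, a change seen in 27.2% of all such genes. None of the 16 had neither end marked in CPI-0209 (upper limit 20.6%; all genes 16.6%), and none of the 16 members unmarked in DMSO had both marked in CPI-0209 (all genes 0.0656%). Of 28 members with any marked end in DMSO, COL6A6 and COL9A1 had none in CPI-0209, against 32.0% of all such genes. The 13 became 7 when 50% of the window had to be covered or the DMSO list was shortened. Under 2 intervals it was 1, and 5 members had both ends marked in DMSO and neither in CPI-0209.

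The number of H3K27me3-marked ends was the same in 39 members, against 85.3% of all genes, lower in CPI-0209 in 5, against 14.2%, and higher in none, against 0.541%.

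The percent of the record under H3K27me3 was lower in CPI-0209 in 28 of 44 members, against 26.9% of all genes, and higher in none, against 1.15%. It was lower by 10 points or more in 18 members, against 18.3% of all genes, and higher by as much in none, against 0.345%. The 6 largest differences were at COL16A1, COL5A3, COL13A1, COL6A3, COL27A1 and COL26A1. Only genes with some of the record under H3K27me3 in DMSO can be lower: 30 of 44 members, against 30.5% of all genes. These shares therefore do not show that collagen genes lost more. The summed H3K27me3 length in CPI-0209 was 0.707 of that in DMSO for collagen records, against 0.418 over all genes. The widest domain at a gene end was narrower in CPI-0209 in 26 of 26 members with a domain in both, but so it was in 97.7% of all such genes. Its median was 9.20 kb in CPI-0209 and 50.2 kb in DMSO, against 6.40 kb and 23.4 kb over all genes, and 25.5 kb in CPI-0209 and 92.2 kb in DMSO with gaps under 5 kb joined. The ratio of the widths ranged widely between members.

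COL13A1 had the narrowest domain relative to DMSO, 7.60 kb in CPI-0209 and 177.6 kb in DMSO. COL18A1 was at the other end, with 35.0 kb in CPI-0209 and 35.4 kb in DMSO. COL23A1 had 18.0 kb in CPI-0209 and 182.0 kb in DMSO. In such genes the DMSO domain was present in CPI-0209 as several pieces: COL23A1 had 23 pieces in CPI-0209 and 3 in DMSO, and COL26A1 had 18 and 5. COL6A3 had 6.80 kb in CPI-0209 and 94.0 kb in DMSO, and COL16A1 7.20 kb and 91.4 kb. Over the family the records held 127 pieces in CPI-0209 and 65 in DMSO, with more pieces in CPI-0209 in 13 members, fewer in 8 and equal numbers in 23. Members without H3K27me3 in either condition are among the equal ones. Members that had none left, such as COL6A6 with 0 pieces in CPI-0209 and 3 in DMSO, are among those with fewer. No share over all genes stands beside these piece counts, so they are not read as particular to collagen genes.

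EZH2 calls differed in both directions between the conditions. Of 14 members with EZH2 at both ends in DMSO, 13 had both in CPI-0209, against 87.9% of all such genes, COL4A3 had 1, against 10.6%, and none had 0, against 1.49%. Under 2 intervals no member had EZH2 at both ends in both conditions. Of 33 members with any EZH2-marked end in DMSO, COL4A5 and COL4A6 had none in CPI-0209, against 4.81% of all such genes. The number of EZH2-marked ends was higher in CPI-0209 in 7 members, against 26.0% of all genes, lower in COL4A3, COL4A5 and COL4A6, against 4.48%, and the same in 34, against 69.6%. The 7 were COL1A2, COL5A3, COL7A1, COL8A2, COL16A1, COL18A1 and COL23A1. All 3 members with fewer EZH2-marked ends were type IV chains. COL4A5 and COL4A6 were counted from the same 0.6 kb DMSO interval, so these 2 are not independent. COL4A3 differed at its far end and not at the start it shares with COL4A4. The percent of the record under EZH2 was higher in CPI-0209 in 20 members, against 39.5% of all genes, and lower in 11, against 28.1%. It was higher by 10 points or more in 7 members, against 16.8% of all genes, and lower by 10 points or more in none, against 7.18%. The widest EZH2 domain was narrower in CPI-0209 in 14 of 31 members with a domain in both, against 59.7% of all such genes. The largest differences upwards after COL16A1 were at COL27A1, with 91.8% in CPI-0209 and 55.7% in DMSO, and COL11A2, with 65.0% and 37.1%. The largest differences downwards were at COL6A3, with 52.5% in CPI-0209 and 61.6% in DMSO, COL12A1, with 4.64% and 12.4%, and COL8A2, with 41.4% and 47.4%.

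In DMSO, EZH2 and H3K27me3 were both at the ends of 26 members, against 23.4% of all genes, EZH2 alone at COL4A3, COL4A4, COL4A5, COL4A6, COL5A2, COL7A1 and COL12A1, against 31.2%, H3K27me3 alone at COL9A1 and COL16A1, against 7.97%, and neither at 9, against 37.4%. EZH2 was thus at an end of 26 of the 28 H3K27me3-marked members, against 74.6% of all such genes.

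COL16A1 (chr1:31652263-31704017), a fibril-associated collagen, had the largest difference in EZH2 coverage among the 44 members. In DMSO it lay under H3K27me3 over 99.6% of its record with no EZH2 interval, the nearest EZH2 being 7784 bp from its start. In CPI-0209 EZH2 covered 95.1% of the record in 2 pieces, and H3K27me3 covered 34.4%. The piece at the start was part of a 91.4 kb domain (chr1:31688601-31780000). That domain lay mostly outside the record, beyond the start, and reached another gene, ADGRB2. The outside stretch already had EZH2 in DMSO, at 7.8 to 45.2 kb and 47.0 to 75.2 kb beyond the start. COL16A1 was the single member of 11 without EZH2 at either end in DMSO that had it at both in CPI-0209. The share over all such genes was 9.10%, so this count is near the background.

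The DMSO H3K27me3 of collagen genes was called again in CPI-0209 more often where EZH2 had been called in DMSO. Over records with 2 kb flanks, 70.3% of 2.07 Mb was called again, against 42.0% over all genes. Under DMSO EZH2 it was 83.1% of 1.60 Mb, against 72.3% over all genes. Without DMSO EZH2 it was 26.6% of 0.469 Mb, against 11.3%. All genes therefore showed the same direction. Where DMSO EZH2 was limited to stretches under 2 intervals, the shares were 91.5% under it and 66.6% without it. Where DMSO H3K27me3 was so limited they were 86.2% and 40.5%. Of the 19 members with at least 1 kb of each kind, 18 had the higher share under EZH2, and COL6A6 had 0% in both. No such gene-by-gene count over all genes stands beside it, so it is not read as particular to collagen genes. The median share was 71.3% under EZH2 and 16.2% without it. The 7 members with all their DMSO H3K27me3 under EZH2 kept a median of 88.8%, from 61.7% at COL8A2 to 94.0% at COL6A1. H3K27me3 in CPI-0209 outside the DMSO intervals came to 2.8 kb of 1.46 Mb, in 3 members.

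**Figure D4:**
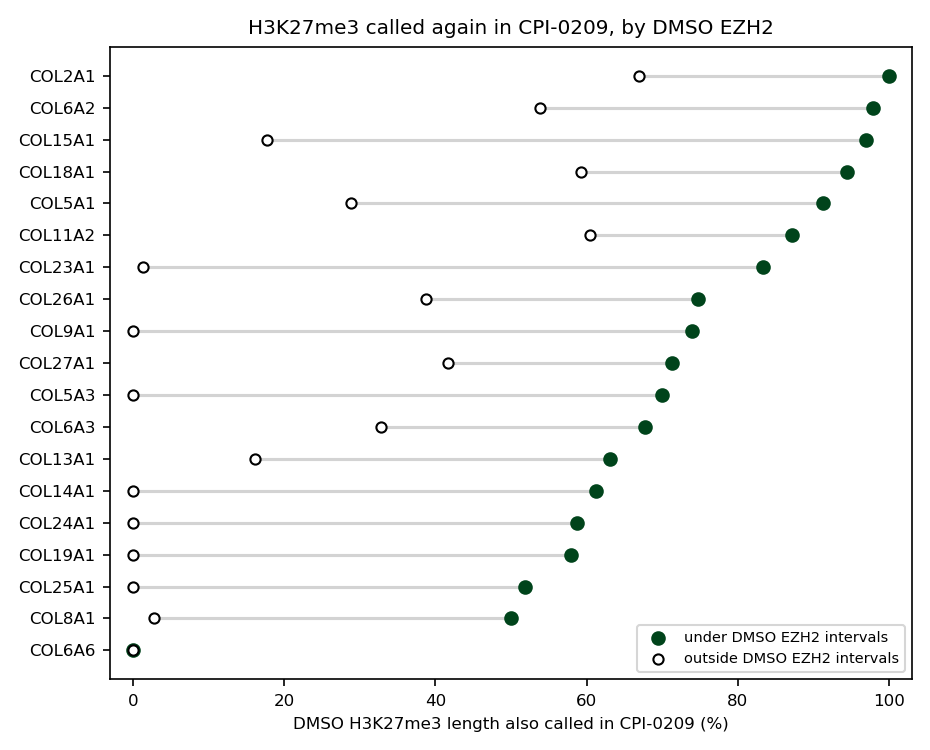
Percent of DMSO H3K27me3 length called again in CPI-0209 (x axis) for the 19 collagen genes (rows) with at least 1 kb under and at least 1 kb outside DMSO EZH2 intervals, 1 dot for each part. In 18 genes the dot under EZH2 is the higher, with medians of 71.3% and 16.2%, and COL6A6 has both dots at 0%. The same count over all genes is not shown.

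COL9A1 has 2 listed starts that differed in the same way. Around the inner start, under EZH2 over 90.1% of the window in both conditions, H3K27me3 covered 65.1% of the window in CPI-0209 and 100% in DMSO. Around the outer start, with no EZH2, it covered 0% in CPI-0209 and 97.1% in DMSO. The start of COL6A6 did not follow this: H3K27me3 covered 0% of its window in CPI-0209 and 100% in DMSO, and EZH2 35.0% in CPI-0209 and 89.4% in DMSO. Other listed starts with H3K27me3 and no EZH2 in DMSO were mixed. Around the COL11A2 start at chr6:33177592, H3K27me3 covered 100% in both conditions. Around the COL16A1 start it covered 60.4% in CPI-0209 and 100% in DMSO. Around the inner COL21A1 start at chr6:56247580 it covered 0% in CPI-0209 and 45.0% in DMSO.

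Coverage was highest around the starts. A start is listed for 32 members, and H3K27me3 marked it in 19 in CPI-0209 and 21 in DMSO, against 17.2% and 24.5% of all 15813 genes with a listed start. The far end was marked in 8 in CPI-0209 and 11 in DMSO, against 10.8% and 19.1%. EZH2 was called at 24 of the starts in CPI-0209 and 25 in DMSO, against 69.5% and 50.7%. Of the starts marked by H3K27me3 in DMSO, 19 of 21 were marked in CPI-0209, against 68.4% over all genes, and of the far ends 8 of 11, against 55.7%. For EZH2 these were 23 of 25 starts, against 94.9%, and 8 of 9 far ends, against 86.7%, both near the background. In DMSO, 19 of the 21 H3K27me3-marked starts also had EZH2, against 72.4% over all genes. In CPI-0209 all 19 had it, against 98.3%. In the 2 kb before the start the mean coverage by H3K27me3 was 50.4% in CPI-0209 and 62.8% in DMSO, and in the last 10% of the record 25.3% and 36.6%. Within 2 kb of the start 82.1% of the DMSO H3K27me3 length was called again in CPI-0209, and 69.0% in the rest of the record, against 61.2% and 37.7% over all genes.

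**Figure D5:**
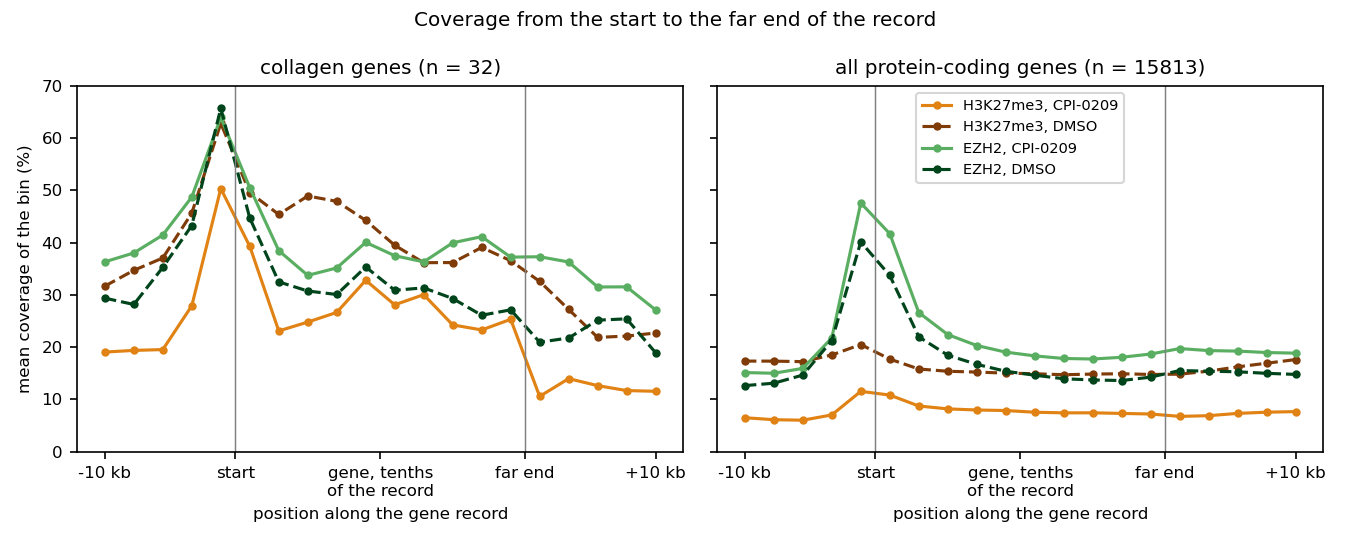
Mean percent covered (y axis) from 10 kb before the start to 10 kb after the far end, in 2 kb bins outside the gene and in 10 equal bins of the record inside it (x axis), for the 32 collagen genes with a listed start and for 15813 protein-coding genes. The collagen H3K27me3 lines are highest in the last 2 kb before the start, at 50.4% in CPI-0209 and 62.8% in DMSO.

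Collagen promoters with H3K27me3 at the start in DMSO held more CpG than those without. The 21 marked promoters had a median of 28 CpG in 300 bases (range 3 to 46), and the 11 unmarked ones 8 (1 to 29). Promoters of head-to-head pairs overlap, by 226 bases for COL4A1/COL4A2, 82 for COL4A4/COL4A3 and 121 for COL4A6/COL4A5. The promoters of such a pair were counted separately and are not independent. Over all genes the medians were 20 in marked and 22 in unmarked promoters, so that the direction was not the same. By EZH2 in DMSO, 25 collagen promoters with a call had a median of 28 CpG and 7 without had 3. The letters GGGCGG, searched on both strands, were found in 13 of 21 marked and 4 of 11 unmarked collagen promoters, and in 58.3% of all promoters. CCAAT was found in 4 of 21 and 5 of 11, and in 36.4% of all promoters. These matches are a description of the letters only. No promoter was listed for COL1A1, COL1A2, COL2A1, COL3A1, COL5A2, COL6A1, COL6A5, COL8A1, COL9A3, COL14A1, COL20A1 and COL22A1.

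Among 78 other genes that make, bind or cut collagen or build the matrix around it, 23 had an H3K27me3-marked end in CPI-0209 and 30 in DMSO, where all genes stood at 21.7% and 31.3%. EZH2 was at an end of 57 in CPI-0209 and 45 in DMSO, where all genes stood at 71.5% and 54.6%. Of 30 genes of collagen biosynthesis and crosslinking, 9 had an H3K27me3-marked end in CPI-0209 and 15 in DMSO, against 21.7% and 31.3% of all genes. EZH2 was called at 28 in CPI-0209 and 20 in DMSO, against 71.5% and 54.6%. P3H3, a prolyl hydroxylase gene, was covered over 80.8% in CPI-0209 and 100% in DMSO, and ADAMTS2, the gene of a procollagen N-proteinase, over 84.7% and 97.6%. ADAMTS14, a relative of ADAMTS2, was at 67.3% and 96.9%, while COLGALT2, a collagen galactosyltransferase gene, was at 6.54% and 79.1% with both ends marked in each condition. BMP1, the procollagen C-proteinase gene, had both ends marked in DMSO and neither in CPI-0209, with 0% of its record covered in either. LOXL3, a lysyl oxidase gene, had 2 EZH2-marked ends in CPI-0209 and 0 in DMSO.

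Laminins and other basement membrane genes had an H3K27me3-marked end at 4 of 16 in CPI-0209 and 4 in DMSO, against 21.7% and 31.3% of all genes, with LAMC3, a laminin gamma chain gene, at 97.9% and 100%. Collagen receptors had 3 of 10 in CPI-0209 and 4 in DMSO, with MRC2, an endocytic collagen receptor gene, at 49.3% and 90.3%. Small leucine-rich proteoglycans, which bind fibrils, had 4 of 12 in both conditions, and BGN and FMOD were covered over 100% in both. Collagen-degrading proteases had 3 of 10 in both. These lists hold 10 to 16 genes each, and none was tested against all genes. MMP9, a gelatinase gene, was covered over 100% in both conditions, and MMP1, an interstitial collagenase gene, over 0% in CPI-0209 and 100% in DMSO. MMP1 had no EZH2 call at its ends in either condition.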

How the data were processed

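ChIP-seq interval lists of 4 HT1376 libraries were used, 1 for each target and treatment. The deposited lists give chromosome, start and end, per the file headers, and the authors deposited no score or count with them. BWA, SICER and hg38 are named, without versions, in the submitters' processing notes. All starts and widths are multiples of 200 bp, and intervals of a list overlap each other, for which no reason is given in the sources used here. Overlapping intervals were merged, and gene records came from a RefSeq GRCh38 gene table. Strand and start came from RefSeq promoters, listed for 32 of the 44 members. Coverage, end calls, domain widths and retention were computed with Python 3.11.15, numpy 2.4.6, pandas 2.3.3 and scipy 1.17.1, with figures from matplotlib 3.10.9, and the interval arithmetic was checked on simulated data. With 1 library per group no test was run, and depth and precision per library are unknown. Members and lists were chosen with earlier results of these data known. Named genes were those marked at both ends in DMSO, those whose marked ends differed by 2, adjacent pairs, the largest differences in coverage and the longest domains, and every other member is also accounted for. Of the other lists, genes lost or gained at both ends and the first 4 kept were named. Alternatives were windows of 1 kb and 5 kb, 50% of the window, stretches under 2 intervals, the longer list of each pair shortened to its widest intervals, gaps under 5 kb joined, medians and the start alone.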

Additional observations from a re-analysis of the deposited data

How the results depend on the processing

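Of 71 recomputed values, 41 were classed as the same and 30 as moved. These classes do not rank the values by the size of the change. EZH2-marked ends in CPI-0209, from 33 members to 26 with the list shortened, were classed as the same. The share called again under DMSO EZH2, from 83.1% to 84.5% with the shortened list, was classed as moved. The order of the conditions turned for H3K27me3-marked ends: with the longer list shortened, 26 members had one in CPI-0209 and 16 in DMSO. Shortening left 2694 of 41342 DMSO intervals and dropped the narrowest first, while the CPI-0209 list kept its narrow ones. The turn therefore cannot be read as a comparison at equal depth. EZH2 marked an end of 33 members in both conditions in the main setting, and of 26 in CPI-0209 and 33 in DMSO with the longer list shortened. The lists overlap themselves, and counting only stretches under 2 intervals moved the most. Members with a marked end were then 11 in CPI-0209 and 27 in DMSO for H3K27me3, and 28 in CPI-0209 and 14 in DMSO for EZH2. Both ends marked in both conditions held for 1 member by H3K27me3 and 0 by EZH2, and 5 members had H3K27me3 at both ends in DMSO and none in CPI-0209. Coverage of the summed records was 3.48% (CPI-0209) and 24.7% (DMSO) for H3K27me3, and 20.7% and 4.44% for EZH2. With the longer list shortened, 7 members had both H3K27me3 ends marked in both conditions, DMSO coverage was 22.9%, and 1 member had EZH2 at both ends in DMSO and none in CPI-0209. Asking for 50% of the window left 7 members with both ends marked by H3K27me3 in both. Joining gaps under 5 kb gave coverage of 22.2% (CPI-0209) and 29.2% (DMSO) for H3K27me3 and 27.1% and 23.6% for EZH2, and median widest H3K27me3 domains of 25.5 kb (CPI-0209) and 92.2 kb (DMSO). The median over genes was 2.44% and 10.9% for H3K27me3 and 7.41% and 4.70% for EZH2. The share of DMSO H3K27me3 called again was 91.5% under EZH2 and 66.6% without it where DMSO EZH2 was limited to stretches under 2 intervals, 86.2% and 40.5% where DMSO H3K27me3 was, and 84.5% and 29.3% with the shortened list. Chosen after seeing the data were all alternatives for EZH2 end classes, for H3K27me3 at both ends in both conditions (50% of the window included) and for the shares called again, and the shortened list and 2-interval stretches for members with both H3K27me3 ends in DMSO and neither in CPI-0209. No share over all genes stands beside the counts of marked ends under these alternatives. The causes were not tested. No paired analysis was possible because each group is 1 library. Without scores or depth, a missing interval cannot be told apart from a signal under the caller's threshold.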
